A study of Mus musculus with 6 samples.

Results

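The myeloid C-type lectin receptors considered here are 9 genes that were chosen by name: Clec4d, Clec4e, Clec4n, Clec4a1, Clec4a2, Clec4a3, Clec5a, Clec7a and Clec12a. Of these, 8 had a row in both deposited tables, and all 8 were among the 12411 genes tested out of the 15454 in the count table. Clec7a, the gene of Dectin-1, was not analysed here. The receptors and the other gene lists below were chosen with earlier results of these data known. Their shares, set beside those of all genes tested, are therefore descriptions and no independent support. The livers came from male C57BL/6 mice aged 8 to 10 weeks, in all of which warm ischemia and reperfusion (I/R) had been applied to 75% of the liver. In the I/R group the mice had been given vehicle, and in the I/R+Rk2 group they had been given ginsenoside Rk2, a ginseng saponin, in the same vehicle. Both were injected into the abdomen 2 days ahead of the operation and once more as blood flow returned. Per the study, the sequenced livers were from the higher of its Rk2 doses and were taken at the end of reperfusion. Each group held 3 libraries, each made from 250 ng of total RNA of a liver sample, and sham-operated livers were not analysed here. The labels number the samples and do not say which mouse each came from, so the p-values measure the spread between these samples. Where a liver is named below, it stands for the sample of a single library.

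C-type lectin receptors of this group are membrane proteins of neutrophils, monocytes, macrophages and dendritic cells that recognise microbial glycolipids, fungal polysaccharides and material released from dying cells. The activating receptors, Mincle (Clec4e), MCL (Clec4d), Dectin-2 (Clec4n) and MDL-1 (Clec5a), carry no kinase motif of their own and signal through the adaptors FcRγ (Fcer1g) or DAP12 (Tyrobp) to the kinase Syk and then to Card9 and NF-κB. Clec4a2 (DCIR) and Clec12a (MICL) carry an inhibitory motif that recruits the phosphatases SHP-1 and SHP-2, and Clec12a recognises uric acid crystals. In the liver, cell death after ischemia releases such material, and leukocytes that carry these receptors enter the tissue.

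All 9 genes lie on chromosome 6 of the mouse genome (GRCm38, the assembly also called mm10, with the GENCODE M21 annotation). Clec4a1, Clec4a3, Clec4a2, Clec4n, Clec4d and Clec4e fill a cluster of 368 kb between positions 122921848 and 123289870. Clec5a stands apart at 40574894 to 40585821, and Clec12a, at 129342691 to 129365303, is followed by Clec7a at 129461591 to 129472779. No receptor shared exon positions with another gene of the annotation. Because Clec4a1, Clec4a2 and Clec4a3 are close relatives, their transcripts were compared in windows of 50 bases with those of all other genes. Clec4a1 and Clec4a3 had 0 shared windows, and 6.83% of the windows of Clec4a2 were found in other genes, 447 of them, so that the count of Clec4a2 is the least certain of these.

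The stretches ahead of the start sites of Clec4e and Clec4d, the receptors with the highest normalised counts, and of Clec4a1 at the other end of the cluster are printed to show the letters behind the motif counts that follow. They are the 250 bases upstream of each start from RefSeq (GRCm38.p6), written 5′ to 3′ along the gene. Capitals mark GAGGAA or its reverse complement, which is the core bound by PU.1 and other ETS factors, and TTGCNNAA, the core of C/EBP factors, or its reverse complement. The windows are chr6:123289872-123290121 on the minus strand for Clec4e, chr6:123261857-123262106 on the plus strand for Clec4d and chr6:122921598-122921847 on the plus strand for Clec4a1.
Clec4e: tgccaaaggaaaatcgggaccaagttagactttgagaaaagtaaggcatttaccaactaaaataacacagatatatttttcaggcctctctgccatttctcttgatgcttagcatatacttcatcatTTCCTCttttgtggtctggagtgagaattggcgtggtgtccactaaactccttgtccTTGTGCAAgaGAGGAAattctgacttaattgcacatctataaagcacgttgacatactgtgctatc
Clec4d: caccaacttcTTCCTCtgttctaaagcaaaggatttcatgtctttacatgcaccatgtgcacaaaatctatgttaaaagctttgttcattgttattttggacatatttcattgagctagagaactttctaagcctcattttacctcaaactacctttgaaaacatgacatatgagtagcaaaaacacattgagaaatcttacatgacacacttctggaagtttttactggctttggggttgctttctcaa
Clec4a1: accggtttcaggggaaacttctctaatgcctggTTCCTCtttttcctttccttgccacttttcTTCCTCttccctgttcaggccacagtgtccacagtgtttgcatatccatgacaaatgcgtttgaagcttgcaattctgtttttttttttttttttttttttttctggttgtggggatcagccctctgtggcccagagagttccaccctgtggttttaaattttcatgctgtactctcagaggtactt

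PU.1 is a master transcription factor of myeloid cells. Its core GAGGAA, read on both strands, stood in the 250 bases of 7 of the 8 receptor genes that have such a stretch in the table, Clec7a included, and in 23.3% of all 32851 promoters. Clec4a2 was the receptor gene without it, and no stretch was at hand for Clec4n. Receptors were counted by gene, with a match in any of its stretches, whereas the shares of all promoters count single stretches. Clec4a3 also had a stretch without the core. In Clec4e a copy began 56 bases and another 123 bases upstream of the start, and the C/EBP core began 66 bases upstream without touching the nearer copy. The C/EBP core was found in 2 of the 8 (Clec4e and Clec12a) against 9.56% of all promoters. The AP-1 core TGANTCA was found in 1 (Clec12a) against 6.75%, the STAT core TTCNNNGAA in 1 (Clec4a2) against 7.02%, and the NF-κB consensus, searched with 1 free base, in 0 against 0.356%. Such matches describe the letters of these windows and are no evidence of binding.

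Every receptor measured was lower in I/R+Rk2 than in I/R. In edgeR's quasi-likelihood test, 8 of 8 were lower past the threshold, which was a Benjamini-Hochberg adjusted p below 0.05 over all genes tested together with a fold change above 2. Over all genes tested, 11.4% were lower and 3.17% were higher past this threshold, and at the adjusted p alone 23.7% were lower and 20.3% were higher. For all 8 receptors the I/R+Rk2 libraries lay below the I/R libraries, a pattern that 30.3% of all genes tested showed. The median log2 fold change of the 8 was -3.03, and that of all genes was -0.01. Summed over the receptors, the normalised count (CPM, the count scaled to the library's total after TMM adjustment) was 69.7 ± 5.2 (SD, n = 3) in I/R and 10 ± 2.54 (SD, n = 3) in I/R+Rk2, 6.96 times as much in I/R. In bulk liver RNA, fewer cells that carry a receptor and less receptor RNA per cell cannot be told apart.

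**Figure D1:**
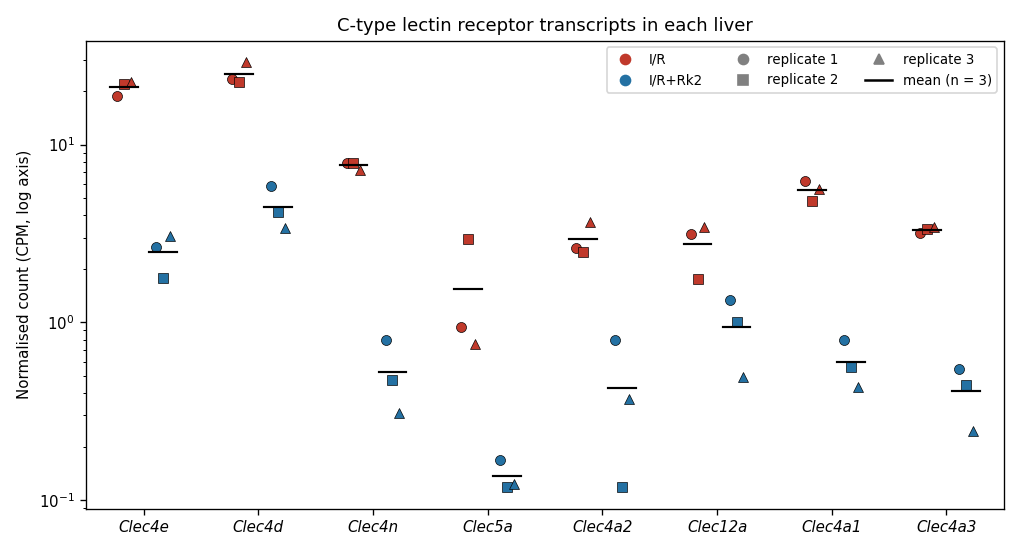
Normalised counts (CPM, log axis) of the 8 receptor genes in each of the 6 livers, with red for I/R, blue for I/R+Rk2, a marker shape for each replicate number and a bar at the group mean. All blue points lie below the red points of the same gene, with the smallest gap for Clec12a.

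Clec4d and Clec4e, neighbours that lie 6.52 kb apart, encode MCL and Mincle, which form a complex with FcRγ and bind mycobacterial cord factor. Clec4e is also a receptor for the nuclear protein SAP130 released by dying cells. The counts of Clec4e were 359, 561 and 562 with vehicle (I/R) and 63, 60 and 50 with Rk2, and the lowest I/R liver had a CPM 6.1 times that of the highest I/R+Rk2 liver. Its log2 fold change was -3.10 (SE 0.21), or 8.58-fold lower in I/R+Rk2, with an adjusted p of 0.00024 (edgeR). The counts of Clec4d were 446, 574 and 732 in I/R and 139, 142 and 55 in I/R+Rk2. The groups did not overlap, and I/R replicate 3 was the highest of all. The log2 fold change of Clec4d was -2.47 (SE 0.22), or 5.54-fold lower, with an adjusted p of 0.000458 (edgeR).

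Clec4n encodes Dectin-2, a receptor for fungal mannans that also signals through FcRγ. It had 151, 203 and 180 counts in I/R and 19, 16 and 5 in I/R+Rk2. Its I/R livers lay close together and its I/R+Rk2 livers were all far below them. With a log2 fold change of -3.82 (SE 0.29, adjusted p 0.000305, edgeR), or 14.1-fold lower, Clec4n had the most negative fold change of the 8, and 0.628% of all genes tested had a lower one.

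Clec5a encodes MDL-1, which pairs with DAP12 and is known as a receptor for dengue virus. It was the least abundant receptor, with 18, 75 and 19 counts in I/R and 4, 4 and 2 in I/R+Rk2. I/R replicate 2 was far above the rest of its group, and the other I/R libraries still lay above all I/R+Rk2 libraries. The log2 fold change of Clec5a was -3.47 (SE 0.69, adjusted p 0.0069, edgeR) and -2.59 without I/R replicate 2. From the pooled counts of 112 in I/R and 10 in I/R+Rk2, the ratio after scaling was 11.8 with an exact 95% interval of 6.2 to 25.4, which covers counting error only. The FPKM values of Clec5a (fragments normalised to transcript length and sequencing depth) placed its livers in another order. They were 1.16, 0.746 and 0.841 in I/R and 0.0411, 0.028 and 0.0283 in I/R+Rk2, so that the library with the most counts had the lowest FPKM of its group. The length implied by count over FPKM was 0.92 and 0.911 kb in I/R replicates 1 and 3 and 3.97 to 4.01 kb in the other 4. Clec5a has 4 annotated transcripts, and whether the transcript that the reads were assigned to differed was not tested.

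The DCIR family members of the cluster behaved alike in direction. Clec4a1 had 120, 124 and 141 counts in I/R and 19, 19 and 7 in I/R+Rk2, for a log2 fold change of -3.19 (SE 0.26, adjusted p 0.000383, edgeR). Clec4a3 had 61, 86 and 86 counts in I/R and 13, 15 and 4 in I/R+Rk2, for a log2 fold change of -2.95 (SE 0.29, adjusted p 0.00064, edgeR). In both genes I/R+Rk2 replicate 3 was the lowest and the groups were far apart. Clec4a2, whose protein DCIR restrains dendritic cells, had 50, 64 and 92 counts in I/R and 19, 4 and 6 in I/R+Rk2. Its I/R+Rk2 livers spread more widely than those of its relatives, and its log2 fold change was -2.81 (SE 0.56, adjusted p 0.00714, edgeR). Without I/R+Rk2 replicate 1, its highest liver of that group, the value was -3.77, and without I/R+Rk2 replicate 2 it was -2.26.

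Clec12a, an inhibitory receptor of granulocytes and monocytes, showed the smallest difference. Its counts were 60, 45 and 86 in I/R and 32, 34 and 8 in I/R+Rk2, and the lowest I/R liver had a CPM only 1.31 times that of the highest I/R+Rk2 liver. The log2 fold change was -1.50 (SE 0.41, 95% confidence interval -2.46 to -0.55, adjusted p 0.0218, edgeR). This call rested on single livers. Leaving out I/R replicate 1 gave an adjusted p of 0.0678 (edgeR) and leaving out I/R replicate 3 gave 0.075. With replicate 2 of I/R+Rk2 omitted it was 0.0645, and the direction did not change in any of these.

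**Figure D2:**
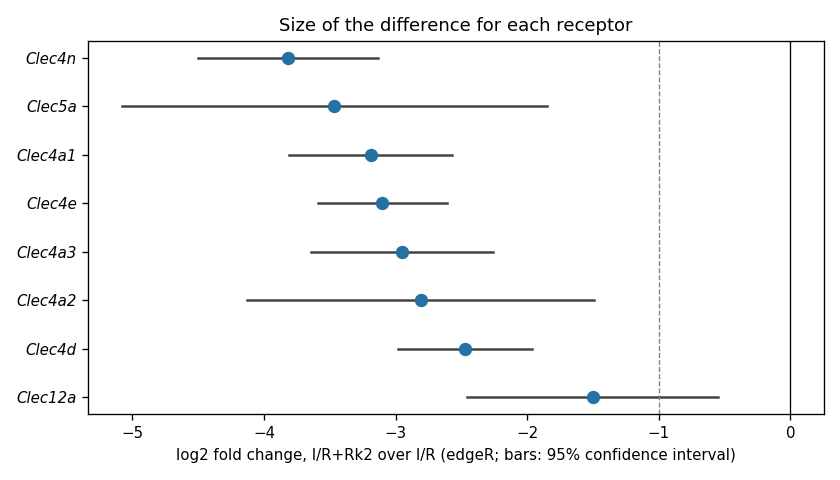
Log2 fold change of each receptor, I/R+Rk2 over I/R, with bars for the 95% confidence interval from edgeR, a solid line at no change and a dashed line at a fold change of 2. The points run from -3.82 for Clec4n to -1.50 for Clec12a, and the intervals of Clec5a and Clec4a2 are the widest.

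To ask whether the receptors moved by unequal amounts, the log2 ratio of CPM was compared between groups for each of the 28 pairs of receptors. The groups did not overlap in 11 pairs, and the share of such pairs over all genes tested was not determined. Clec12a took part in 5 of these, being higher in I/R+Rk2 relative to Clec4d, Clec4n, Clec4a1, Clec4a2 and Clec4a3. Clec4n also took part in 5, being lower in I/R+Rk2 relative to Clec4d, Clec4e, Clec4a1, Clec4a3 and Clec12a. The ratio of Clec4n to Clec12a differed most, with a log2 value of 1.52 in I/R and -0.84 in I/R+Rk2. The smallest two-sided exact permutation p was 0.1, the lowest that 3 livers against 3 allow, and 0.255 after adjustment over the 28 pairs, so no pair passed.

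Among the livers given Rk2, replicate 1 had the highest CPM for 7 of the 8 receptors, all but Clec4e. Its summed FPKM was 8.04, against 5.64 and 4.48 in the other livers of the group and 48.1, 41.2 and 52.2 in I/R.

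Per length and depth, Clec4d was the most abundant receptor in both groups. In I/R its FPKM was 21.9, 19.0 and 27.0, above all values of Clec4e (7.14 ± 0.264, SD, n = 3) and Clec4n (6.59 ± 0.445), whose ranges overlapped each other. Below them came Clec4a1 at 3.56 ± 0.661 FPKM, Clec4a3 at 3.26 ± 0.683, Clec4a2 at 1.85 ± 0.832, Clec12a at 1.2 ± 0.292 and Clec5a at 0.917 ± 0.219, and each of these overlapped the next. In I/R+Rk2, Clec4d (3.19 ± 0.87 FPKM, n = 3) and Clec4e (0.997 ± 0.048) stood above the rest, and the range of neither overlapped that of the next. Clec12a (0.525 ± 0.372) and Clec4n (0.502 ± 0.343) followed and could not be told apart from each other. Clec5a was the lowest in I/R+Rk2 at 0.0325 ± 0.00749 FPKM.

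As a share of the summed receptor FPKM, Clec4d held 47.8% ± 3.42 (SD, n = 3) in I/R and 53.1% ± 3.03 in I/R+Rk2. The share of Clec4n was 14.2% ± 2.38 in I/R and 7.66% ± 3.35 in I/R+Rk2, and that of Clec5a was 1.95% ± 0.423 and 0.546% ± 0.0735. Clec12a held 2.17% to 2.82% in the I/R livers and 2.6% to 10.9% in the I/R+Rk2 livers, so its groups overlapped. For these FPKM values the lengths implied by the counts varied between libraries from 1.55 to 3.85 kb for Clec12a and from 1.68 to 3.19 kb for Clec4e. For Clec5a they were 0.92 and 0.911 kb in I/R replicates 1 and 3 and 3.97 to 4.01 kb in the other libraries. The part this had in the order and in the shares was not tested. In the ratios of CPM above, the groups overlapped in every pair that held Clec5a.

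**Figure D3:**
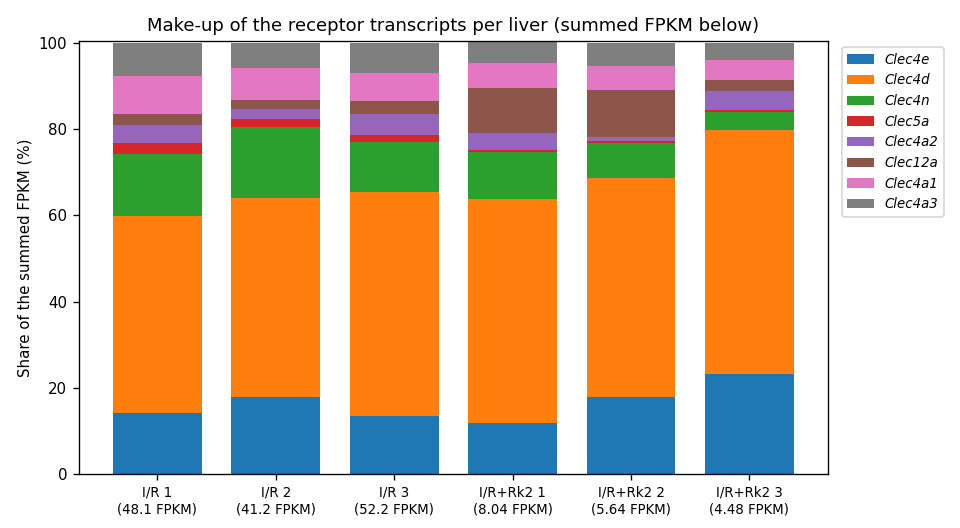
Share of each receptor in the summed FPKM of the 8 receptors (vertical axis, %) for each liver, with the summed FPKM below each bar. Clec4d makes up 45.6% to 56.6% of every bar, and the sum falls from 41.2 or more in I/R to 8.04 or less in I/R+Rk2.

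The adaptors that the activating receptors depend on were lower in the same livers. Tyrobp (DAP12) had 661, 832 and 933 counts in I/R and 266, 264 and 133 in I/R+Rk2, with a log2 fold change of -1.94 (SE 0.16, adjusted p 0.000366, edgeR). Fcer1g (FcRγ) had 515, 609 and 775 counts in I/R and 227, 190 and 100 in I/R+Rk2, with a log2 fold change of -1.94 (SE 0.22, adjusted p 0.000982, edgeR). Both adaptors changed less than 7 of the 8 receptors, a difference that was not tested. Hcst (DAP10) had 16, 4 and 20 counts in I/R and 0, 13 and 0 in I/R+Rk2 and was not among the genes tested.

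Downstream of the adaptors, 13 of 39 signalling genes were lower and 0 were higher past the threshold, and the median log2 fold change was -0.47. The 13 made up 33.3%, against 11.4% of all genes tested. At the adjusted p alone, 20 were lower and 3 were higher, against 23.7% and 20.3% of all genes tested. By p, the first were Pik3ap1, the adaptor BCAP, at -1.91 (SE 0.11, adjusted p 0.00024, edgeR), and the NF-κB genes Nfkb2 at -1.39, Relb at -1.59 and Nfkb1 at -1.19. The kinase Syk, at the head of the pathway, was lower at -1.60 (SE 0.30, adjusted p 0.00589, edgeR), and Card9 was lower at -3.56 (SE 0.71, adjusted p 0.00716, edgeR), with 12, 35 and 37 counts in I/R and 5, 2 and 0 in I/R+Rk2. Syk and Card9 were named for their place in the pathway after their values were seen. The partners of Card9 gave a log2 fold change of -0.79 for Bcl10 (adjusted p 0.00112, edgeR), which was below a 2-fold change, and -0.19 for Malt1 (adjusted p 0.419), and both were added in the same way.

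Among 6 genes listed as inhibitory phosphatases, not all of which act on these receptors directly, 2 were lower past the threshold. They were Ubash3b (STS-1) at a log2 fold change of -2.42 and Inpp5d (SHIP1) at -1.69. Ptpn11 (SHP-2) at -0.55 and Ptpn6 (SHP-1) at -0.51 passed the adjusted p (0.00187 and 0.0168, edgeR) but not the fold change. The median of the 6 was -0.64. Those past the threshold made up 33.3%, against 11.4% of all genes tested.

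Of 15 tested target genes of the pathway, 13 were lower past the threshold and 0 were higher, with a median log2 fold change of -2.57. The 13 made up 86.7%, against 11.4% of all genes tested. The transcription factor gene Egr2, a target of NFAT downstream of these receptors, was at -1.63 (adjusted p 0.000549, edgeR). The cytokine gene Il1b was at -3.13, the neutrophil chemoattractant gene Cxcl2 at -2.68 and the inflammasome sensor gene Nlrp3 at -3.07. The remaining 2 were Tnf, at -1.09 (adjusted p 0.0813, edgeR), and Il10, the gene of an anti-inflammatory cytokine, at 1.73 (adjusted p 0.0536, edgeR), named after their values were seen. Il10 had 3, 7 and 20 counts in I/R and 52, 30 and 19 in I/R+Rk2. Many of these targets also answer to other receptors.

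The genes of endogenous ligands did not share a direction. Of 7 tested, 2 (28.6%) were lower past the threshold, against 11.4% of all genes tested, and 0 were higher. The median log2 fold change was 0.05. Vim, whose protein vimentin is bound by Dectin-1, was at -1.80 and Anxa1 at -1.72. Xdh, which makes the uric acid whose crystals Clec12a recognises, had a log2 fold change of -0.90 (adjusted p 0.000537, edgeR), and Lgals9, a ligand of Dectin-1, had one of 0.85 (adjusted p 0.00227). For Sap130, the ligand of Mincle, which was named for that role after its values were seen, counts were 310, 350 and 326 in I/R and 326, 571 and 247 in I/R+Rk2, with a log2 fold change of 0.10 (SE 0.13, adjusted p 0.577, edgeR).

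The other C-type lectins of the count table were not uniformly lower. Of 25 tested, 8 were lower and 3 were higher past the threshold, with a median log2 fold change of -0.13. The 8 made up 32%, while 11.4% of all genes tested were lower and 3.17% were higher. Leaving out either I/R replicate 3 or I/R+Rk2 replicate 2 lowered the 8 to 5. The lower genes were led by Olr1, the scavenger receptor LOX-1, at -4.71 (SE 0.26, adjusted p 0.000212, edgeR), and Sele, the gene of the endothelial adhesion molecule E-selectin, was at -1.18 (adjusted p 0.000918, edgeR). The 3 higher genes were Clec2d at 1.34 (adjusted p 0.00024, edgeR), Clec14a at 1.15 and Clec11a at 1.25. Clec4f, the lectin of Kupffer cells, was named after its values were seen. It had 360, 400 and 410 counts in I/R and 422, 449 and 248 in I/R+Rk2, with a log2 fold change of -0.13 (SE 0.14, adjusted p 0.474, edgeR). Clec4b1, the only other gene of the count table inside the cluster, had 0, 0 and 6 counts in I/R and 0 in every I/R+Rk2 library. Within 500 kb on either side of the cluster, 5 genes other than the receptors were tested and 2 of them were lower past the threshold, the complement receptor gene C3ar1 at -2.47 and the cytidine deaminase gene Apobec1 at -1.13. The others were Slc2a3, Foxj2 and Necap1, at -0.75, -0.38 and 0.21. For comparison, 11.4% of all genes tested were lower past the threshold.

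**Figure D4:**
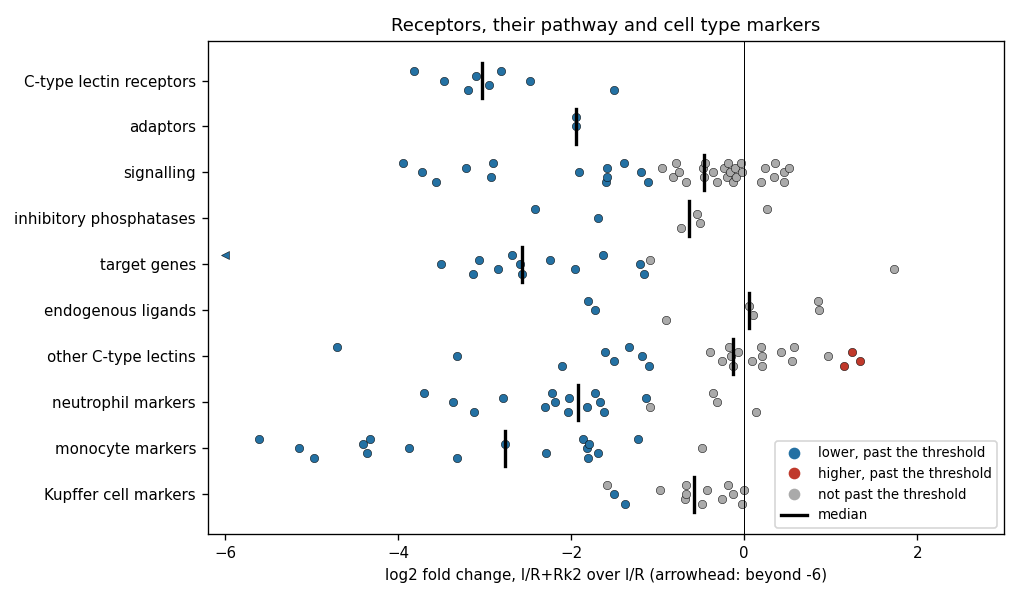
Log2 fold change, I/R+Rk2 over I/R, of each tested gene in 10 lists, with blue for lower and red for higher past the threshold, grey for the rest and a black bar at the list's median. An arrowhead marks Nos2, whose counts were 0 in every I/R+Rk2 library, and the receptors (median -3.03) lie with the monocyte markers (-2.77) and target genes (-2.57), while the other C-type lectins centre on -0.13.

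Markers of the cells that carry these receptors moved in the same livers. Over all genes tested, 11.4% were lower past the threshold. Of 17 monocyte markers, 16 were lower past the threshold, with a median log2 fold change of -2.77, led by Ccr2 at -4.41, Vcan at -5.61, Ms4a6c at -4.33 and F13a1 at -5.15. Of 18 tested neutrophil markers, 14 were lower, with a median of -1.92, led by Slfn4 at -3.37, Lcn2 at -3.70, Trem1 at -2.79 and Mmp8 at -2.22. Of 14 tested Kupffer cell markers, 2 were lower, Csf1r at -1.50 and Cd163 at -1.38, and the median was -0.58. That share, 14.3%, was near the share over all genes tested. Dendritic cell markers were lower in 4 of 6 tested, with a median of -1.71. No B cell marker (0 of 7) and 2 of 12 T and NK cell markers could be tested, and neither of the latter passed. Endothelial markers were lower past the threshold in 1 of 11 (9.09%) and hepatocyte markers in 0 of 15, with 1 of the latter higher. The lists overlap in part, and Clec4f stands in those of Kupffer cells and other lectins. Hepatocyte markers, which check the label of liver, summed to 103000 to 114000 CPM with vehicle and 133000 to 158000 CPM with Rk2.

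Set against summed neutrophil markers, which came to 1510 to 1840 CPM with vehicle and 501 to 624 CPM with Rk2, the receptors as a sum were lower by a log2 ratio of -1.27, or of -0.23 without the marker Wfdc21. Against summed Kupffer cell markers, at 179 to 241 CPM with vehicle and 141 to 175 CPM with Rk2, the value was -2.37. Against summed monocyte markers, at 1990 to 2300 CPM with vehicle and 1200 to 1270 CPM with Rk2, it was -2.01, or -0.08 without the marker Fn1. With all markers summed the groups did not overlap in any of the 3 ratios, and the two-sided exact permutation p was 0.1 each, the lowest possible with 3 livers a group, or 0.108 adjusted over 27 ratios. For single receptors the groups were apart in 7 of 8 ratios to the neutrophil sum, 7 of 8 to the monocyte sum and 8 of 8 to the Kupffer cell sum. The share of all genes tested that is apart in such ratios was not determined. By CPM alone, 30.3% of them were apart and lower in I/R+Rk2. With all markers summed, Clec12a was the exception for neutrophils and monocytes. Its log2 ratio differed by -0.06 against the neutrophil sum (exact permutation p 0.9, adjusted 0.9) and by -0.79 against the monocyte sum (0.2, adjusted 0.208). Without Wfdc21 in the neutrophil sum the groups were apart for 2 of the 8 receptors, and without Fn1 in the monocyte sum also for 2. Clec12a was then among several receptors that overlapped.

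The size of the monocyte and neutrophil ratios changed when single markers were left out. Fn1, the gene of fibronectin that hepatocytes also make, held most of the monocyte sum, with a mean of 1610 CPM with vehicle and 1150 CPM with Rk2. Without Fn1 the monocyte sum was 527 to 624 CPM with vehicle and 72.9 to 109 CPM with Rk2, and the difference in log2 ratio was -0.08, with groups that overlapped. With each monocyte marker weighted equally it was 0.27, also with overlap. Relative to monocyte markers other than Fn1, the difference of the summed receptors thus did not exceed the spread between livers. Wfdc21, whose level was 298 CPM with vehicle and 329 CPM with Rk2 (adjusted p 0.552, edgeR), held much of the neutrophil sum in the livers given Rk2. Without Wfdc21 the neutrophil sum was 1240 to 1540 CPM with vehicle and 168 to 341 CPM with Rk2, and the difference in log2 ratio was -0.23, with groups that overlapped. It was -1.85 without Lcn2, which hepatocytes also make, -0.78 without both genes and -0.96 with equal weights, with the groups of the summed receptors apart in these 3. How far the receptors differed relative to neutrophil markers thus varied with the markers summed. The Kupffer cell ratio was -2.18 without Slc40a1 and -2.24 with equal weights, with groups apart in both. The choice of these other weightings was made after the data were seen.

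**Figure D5:**
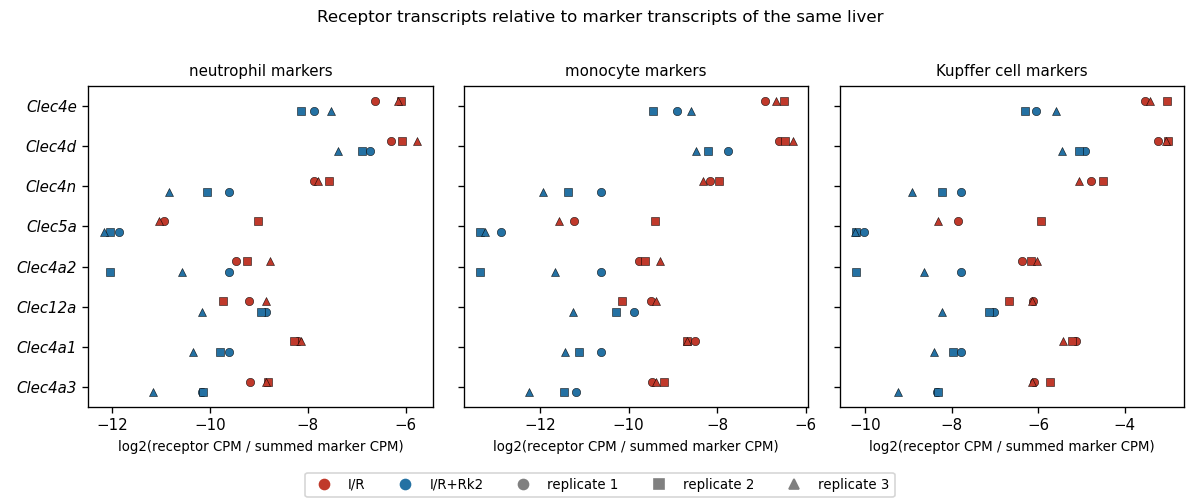
Log2 ratio of each receptor's CPM to the summed CPM of neutrophil (left), monocyte (middle) and Kupffer cell (right) markers in the same liver, with red for I/R, blue for I/R+Rk2 and a marker shape for each replicate number. Red and blue are apart for 7, 7 and 8 of the 8 receptors, but for 2 on the left without Wfdc21 and 2 in the middle without Fn1. The share over all genes tested was not determined.

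The genes whose profile over the 6 libraries lay nearest to the median profile of the receptors were sought among 11383 genes, by the root mean square distance of mean-centred log2(CPM + 1) values. Among the nearest were Fcgr1, the high-affinity IgG receptor, at a distance of 0.0263, the adaptor gene Tyrobp at 0.0584, Cass4 at 0.0605 and Gm14548 at 0.0661. Fcgr1 had 92, 122 and 135 counts in I/R and 22, 18 and 9 in I/R+Rk2. These 6 libraries share the contrast between groups, which fills most of each profile. On the log2(CPM + 1) scale low values are compressed, so near genes can still differ in fold change, as Tyrobp at -1.94 and Gm14548 at -5.07 on the log2 scale of the edgeR fit show.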

How the data were processed

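Liver RNA of 6 mouse samples was analysed, 3 per group as the labels give them. Per the labels and the study's methods, the authors prepared libraries with an MGI kit and processed the reads with FastQC 0.11.5, HISAT2 2.2.1 and StringTie 1.3.3 on mm10. The annotation and the strand setting are not given in the sources used here. The deposited count table holds whole-number counts per gene, not normalised (15454 genes). The deposited FPKM table holds values per transcript length and depth, normalised by the authors (21948 rows). All columns were matched to a sample by name. Library totals lay between 16809613 and 35618074 counts, at which 3 counts stand for 0.0888 to 0.184 CPM, a limit that covers counting error only because PCR copies are not independent molecules. No 2 libraries of a group agreed within sampling noise.

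Counts were tested with edgeR 4.0.16 in R 4.3.3 (filterByExpr, TMM scaling, quasi-likelihood F test, no covariates) on all 6 libraries, with Benjamini-Hochberg adjustment over 12411 genes. Standard errors are the absolute log2 fold change over the square root of F. On simulated counts for these genes, the test recovered 62% of 100 genes changed 2-fold and 86% of 100 changed 4-fold. Single ratios were compared by exact permutation tests (scipy 1.17.1, two-sided). Lists are described by counts and medians and were not tested as sets. Alternatives were other scalings, other filters, a replicate block, leaving out each library, DESeq2 1.42.0 and limma 3.58.1 on log2(FPKM + 1) and log2(FPKM + 0.1), keeping genes whose mean FPKM reached 1, or all genes for the former. The receptors and lists were chosen with earlier results of these data known. All receptors are named, and of each other list the adaptors in full, at most the 4 genes with the smallest p and those past the threshold against the list's majority, together with the 5 genes of nearest profile (mean CPM of at least 1). A few of the genes so chosen are left unnamed, and all counts include them. Genes named outside this rule are marked where they appear, and the neighbours of the cluster were taken by position.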

Additional observations from a re-analysis of the deposited data

How the results depend on the processing

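No receptor changed direction under any alternative run. Clec4d, Clec4e, Clec4n, Clec4a1, Clec4a2 and Clec4a3 stayed past the threshold in every alternative that tested them. Requiring at least 10 counts in every library left only Clec4d and Clec4e to test, so 2 receptors passed by construction, and lowered the signalling genes to 8 and the other C-type lectins to 5. Leaving out each library in turn gave 7 to 8 receptors, 12 to 14 signalling genes and 5 to 8 other lectins, the lowest lectin count being without I/R replicate 3 or I/R+Rk2 replicate 2. With limma on log2(FPKM + 1), the median log2 fold change of the receptors was -1.90 with the filter and -1.74 without it, on a scale that shrinks changes of low values, and 5 other lectins passed with or without the filter. Clec5a then lay at -0.89 and Clec12a at -0.55 (adjusted p 0.121), short of the threshold. The replicate block gave 7 receptors, since Clec12a had an adjusted p of 0.0504. Same-numbered libraries did not deviate together (correlations of -0.0559, 0.00522 and -0.0579), so the numbers were not taken as pairs. For marker ratios, the summed receptors differed by -1.85, -0.08 and -2.18 without the most abundant neutrophil, monocyte and Kupffer cell marker, by -0.78, 0.53 and -2.10 without the 2 most abundant, and by -0.96 and 0.27 against equally weighted neutrophil and monocyte markers, so that both positive values, for monocytes, had the opposite sign. The single marker whose removal brought the difference nearest to 0 was Wfdc21 for neutrophils (-0.23), Fn1 for monocytes (-0.08) and Slc40a1 for Kupffer cells (-2.18). Depth limits Clec5a, Clec4a2 and Clec4a3, each of which had an I/R+Rk2 library with 4 counts or fewer.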
